A study of Homo sapiens with 9 samples.

Results

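The genes of the far end of the long arm of chromosome 11 were examined in HCT116 colon cancer cells that expressed one of the A and B isoforms of TIG1, the tazarotene-induced gene now named RARRES1. Members were the genes of the array annotation that start at or above position 100000000 of chromosome 11 (GRCh38) and whose brightest probe set reached the array median on at least 2 of 3 arrays of a group. Of 284 annotated genes of this region, 9 were left out by name, 108 of the other 275 did not reach the median, and 167 remained as members among 13342 genes tested. The region was proposed with results of these arrays known, so its counts and medians are descriptions. Of the 167 members, 154 code for proteins and 13 are long non-coding RNAs. In all, 136 passed in every group, 12 through a pair of groups and 19 through 1 group only. Those 19 had to differ to some degree between groups, and 9 of them passed through TIG1B, 7 through control and 3 through TIG1A.

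The arrays, 9 in all, were Affymetrix HG-U133 Plus 2.0 arrays hybridised with total RNA. HCT116 is a human colorectal carcinoma line. The control cells were an HCT116 stable clone that carried the pSwitch regulatory plasmid and an empty pGene/V5 plasmid. The TIG1A and TIG1B cells carried the same regulatory plasmid and an inducible plasmid for the long (A) or short (B) isoform. All 3 kinds of cell were kept in 5 nM mifepristone, the inducer, for 24 h by the sample labels, so no group was uninduced. The paper likewise gives 5 nM for 24 h for the arrays. The design text of the series instead names 5 micromolar, overnight, and the reason for this difference is not known here. Each group held 3 arrays and came from 1 clone, which means that isoform and clone cannot be told apart and that p-values measure the spread between cultures of a clone. The regulatory protein of this system contains a part of the human progesterone receptor, whose gene, PGR, lies in the region.

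The distal long arm of chromosome 11 holds genes of unrelated function that are neighbours by position only. Among them are ATM and CHEK1, kinases that signal DNA damage and stalled replication, the cluster of matrix metalloproteinases, the inflammatory caspases with the cytokine IL18, the apolipoprotein cluster, and subunits of secretory and mitochondrial complexes whose partners are encoded elsewhere.

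The RARRES1 probe sets that reached the array median were bright in both TIG1 clones and dim in control, so they do not tell the isoforms apart. A further RARRES1 probe set did not reach it, with means of 7.95, 3.84 and 14.8 in control, TIG1A and TIG1B. The brightest probe set averaged 62881 ± 4179 in the TIG1A and 39336 ± 4496 in the TIG1B clone, beside 4.24 ± 1.19 in the control clone (SD, n = 3 each). Epithelial markers EPCAM, CDH1, KRT8, KRT18, KRT19 and CLDN4 were above the array median on all 9 arrays. Of markers of fibroblasts, leukocytes and endothelium, COL1A1, CD79A and PECAM1 were too, and most of the others were below it. On 2 arrays, TIG1A 1 and TIG1B 1, the 3′ to 5′ ratio of GAPDH was 1.00 and 1.01, against 0.899 to 0.950 on the others. The third control array stood apart from the other controls in the members themselves, as described next.

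The members were lower in TIG1A than in TIG1B cells. For each array the median over members was taken of log2 intensity minus the gene's own 9-array mean. It was -0.21 on each of the 3 TIG1A arrays and 0.23, 0.28 and 0.27 on the TIG1B arrays. On the control arrays it was 0.10, 0.14 and -0.18. Thus no TIG1A array overlapped a TIG1B array, and the control arrays spread between them, with control 3 close to the TIG1A arrays. The same median over all genes tested lay between 0.002 and 0.068 on the 9 arrays. The plot of array medians shows these values beside those of other stretches of chromosome 11.

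**Figure D1:**
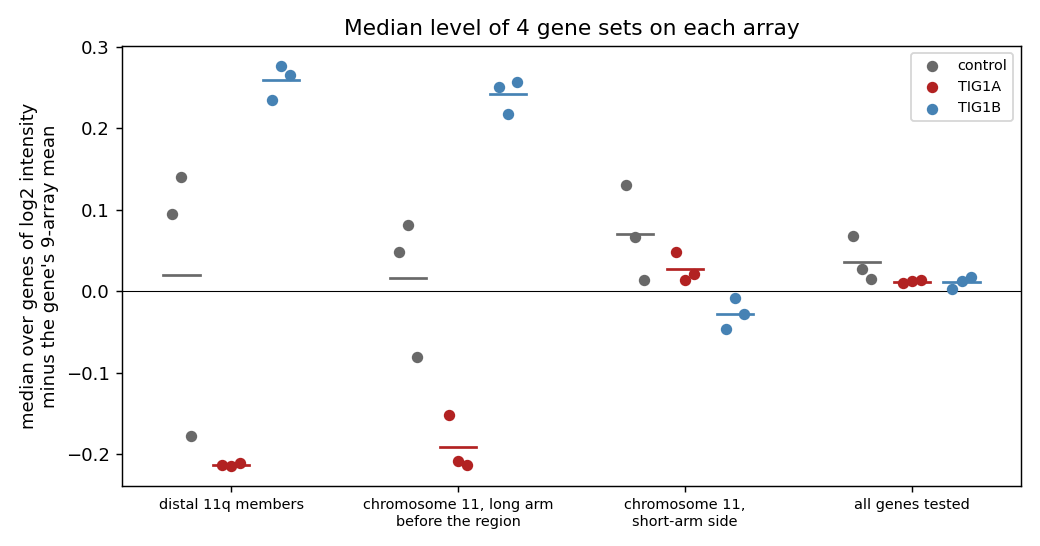
Median over genes of log2 intensity minus the gene's 9-array mean, for 4 gene sets (x axis) on each of 9 arrays; points are arrays, bars are group means, and colours are control, TIG1A and TIG1B. For the 167 distal 11q members the TIG1A arrays sit at -0.21 and the TIG1B arrays between 0.23 and 0.28, with the control arrays spread from -0.18 to 0.14.

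As log2 fold changes from a linear model (limma) over all 9 arrays, the median member stood at -0.27 in TIG1A against control, beside -0.03 over all genes tested, and 118 of 167 members were below 0 (52.2% of all genes). In TIG1B against control the median was 0.22, beside -0.01 over all genes, and 114 of 167 were above 0 (48.9% of all genes). These comparisons share their control arrays. In TIG1A against TIG1B, which uses no control array, the median was -0.47, a 1.39-fold difference, beside 0.003 over all genes, and 138 of 167 members were below 0 (49.7% of all genes). The 10th and 90th percentiles of the members were -1.16 and 0.33 in that comparison. Restricted to the 136 members that passed in every group, the medians were -0.22, 0.25 and -0.46. Without control replicate 3 the medians of all members were -0.37 and 0.14 against control and -0.48 between the TIG1 clones.

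Intensities of single members separated the TIG1 clones more often than the clones from control. In TIG1A against TIG1B, 88 members had every TIG1A array below every TIG1B array and 4 had the reverse order, where 14.2% of all genes tested were separated in each direction. In TIG1A against control, 38 members were separated downwards and 13 upwards, beside 17.9% and 16.3% of all genes. In TIG1B against control, 49 members were separated upwards and 6 downwards, beside 12.2% and 14.6% of all genes. The counts differed with brightness. Of the 84 brighter members 77 were below 0 in TIG1A against TIG1B and 55 were separated downwards, and of the 83 dimmer members 61 were below 0 and 33 were separated. All genes were not split by brightness, so whether this difference is one of the members was not tested.

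The shift was not particular to the members. In windows of 10 Mb with at least 20 genes tested, 237 windows over the genome, the median of TIG1A against TIG1B was at or below -0.3 in 7 windows, and these were the 7 windows that run from 60 to 130 Mb of chromosome 11. Beyond 130 Mb too few genes were tested for a window, and the 14 members there had a median of -0.47. The windows from 100 to 130 Mb hold the other members and also the genes left out by name. Their medians were -0.62 (100 to 110 Mb, 31 genes), -0.45 (110 to 120 Mb, 76 genes) and -0.42 (120 to 130 Mb, 55 genes). Outside that stretch the lowest window median was -0.27, and 7 windows on other chromosomes were at or above 0.3. In the 328 genes between 60 and 100 Mb of the same chromosome the medians were -0.19 in TIG1A against control, 0.21 in TIG1B against control and -0.44 in TIG1A against TIG1B. In the 262 genes below 55 Mb the corresponding medians were -0.04, -0.10 and 0.03. The plot of chromosome 11 in gene order shows the running median leave 0 well before the first member.

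**Figure D2:**
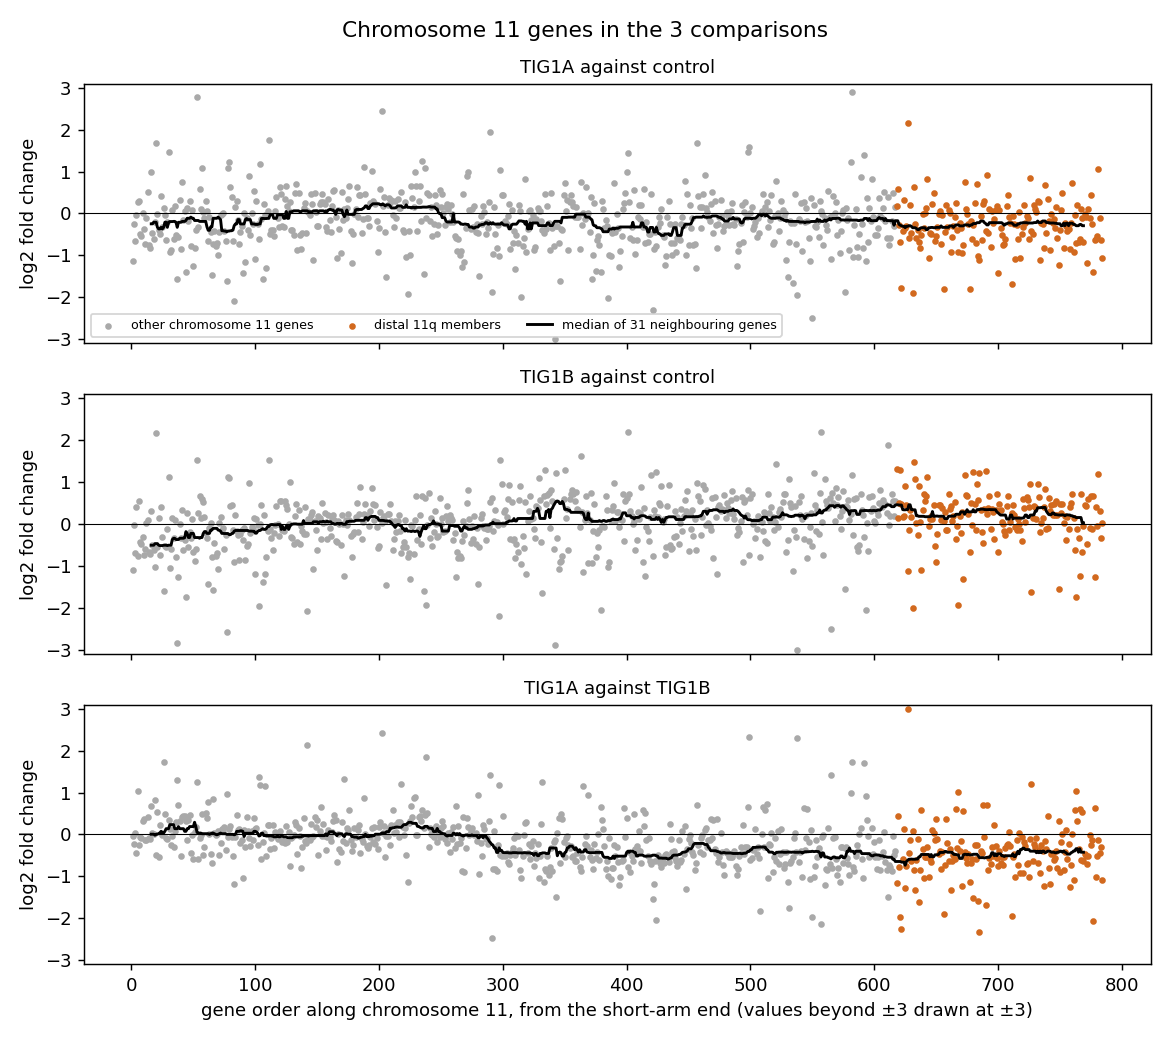
Log2 fold change of each chromosome 11 gene (y axis) by its order along the chromosome (x axis) in the 3 comparisons; orange points are the 167 distal 11q members, grey points the other genes, and the line the median of 31 neighbouring genes. In TIG1A against TIG1B the line runs near 0 over the short arm and below 0 over the long arm to its end, with a member median of -0.47.

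The 3 kept genes just outside the position limit were CCDC82, JRKL and MAML2, with log2 fold changes in TIG1A against TIG1B of -0.49 ± 0.24, -0.38 ± 0.31 and -0.04 ± 0.34 (SE). The 3 just inside were ARHGAP42, PGR and TMEM123, with values of -1.15 ± 0.18, 0.44 ± 0.15 and -0.78 ± 0.21. For a later limit of 110000000, which kept 138 members, the median was -0.44.

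TIG1A against control asks what the long isoform's clone did differently from the empty-plasmid clone. Of the members, 5 fell and 2 rose at an adjusted p under 0.05 (limma, Benjamini-Hochberg over all probe sets kept), which is 7 of 167 beside 7.02% called over all genes (3.63% lower and 3.39% higher). At an unadjusted p under 0.05, 36 were lower and 11 higher, beside 14.5% and 13.2%. BCL9L, a co-activator that binds β-catenin in Wnt signalling, read 672, 800.0 and 685 on the control arrays, 328, 271 and 212 on the TIG1A arrays and 480.0, 496 and 385 on the TIG1B arrays. Every TIG1A array was thus below every other array, and BCL9L was 2.69-fold lower than in control (log2 -1.43 ± 0.20, SE, adjusted p = 0.0139). A further BCL9L probe set was at -0.78 in TIG1A against control and did not pass (limma, adjusted p = 0.17). ST14, the gene of the membrane serine protease matriptase, read 3032, 3082 and 3625 in control, 1663, 1331 and 1297 in TIG1A and 2284, 2733 and 2010.1 in TIG1B cells. Its arrays fell in the same order without overlap, and it was 2.28-fold lower in TIG1A than in control (log2 -1.19 ± 0.17, adjusted p = 0.0146). A further ST14 probe set was at -1.005 in TIG1A (limma, adjusted p = 0.0514) and at -0.04 in TIG1B against control. The intermediate TIG1B level was thus not seen on it.

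The other falls were of similar size. NRGN, neurogranin, a calmodulin-binding protein known from neurons, read 1136, 1423 and 1096 in control, 816, 517 and 416 in TIG1A and 1185, 965 and 1041 in TIG1B cells, a log2 change of -1.11 ± 0.25 in TIG1A (adjusted p = 0.0459). RNF26, an endoplasmic reticulum ubiquitin ligase, read 1403, 1871 and 1172 in control, 883, 578 and 615 in TIG1A and 1561, 1176 and 1428 in TIG1B cells (-1.10 ± 0.24, adjusted p = 0.0405). POGLUT3, an O-glucosyltransferase of the endoplasmic reticulum, read 989.9, 682 and 530.5 in control, 391.8, 322 and 309 in TIG1A and 764, 677 and 612 in TIG1B cells (-1.07 ± 0.24, adjusted p = 0.0429). In these 3 genes the TIG1B arrays overlapped the control arrays and the TIG1A arrays lay below both. A further RNF26 probe set was at -0.78 in TIG1A against control and did not pass (limma, adjusted p = 0.0624).

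IL10RA, the ligand-binding chain of the interleukin-10 receptor, rose. It read 187, 163 and 222 in control, 438, 306 and 347 in TIG1A and 228, 222 and 219 in TIG1B cells, 1.90-fold higher in TIG1A than in control (log2 0.93 ± 0.18, adjusted p = 0.0302). The count of 7 rested on single arrays: it was 10 without control replicate 3, 4 without control replicate 2, 1 without TIG1A replicate 2 or without TIG1A replicate 3, and 2 without TIG1B replicate 2 or without TIG1B replicate 3. Over all genes these fits, in that order, called 538, 183, 165, 143, 424 and 410, beside 936 with all arrays. Fitting the 6 arrays of the comparison alone called none of the 167 and 67 of all genes.

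C11orf71, an open reading frame of little described function, rose in both TIG1 clones on its brightest probe set. It read 191, 163 and 151 in control, 298, 303 and 244 in TIG1A and 431, 337 and 367 in TIG1B cells, so the 3 groups followed each other without overlap. The log2 change was 0.74 ± 0.17 in TIG1A (adjusted p = 0.0426) and 1.17 ± 0.17 in TIG1B (adjusted p = 0.0246). A further C11orf71 probe set was also above 0 in both clones and passed in neither. In TIG1A it was at 0.48 (limma, adjusted p = 0.32), and in TIG1B it was close to the brightest (limma, adjusted p = 0.0870). C11orf71 lost its TIG1A call with means over probe sets. Its neighbour RBM7, an RNA-binding subunit of the nuclear exosome targeting complex, starts in the opposite direction and read 3038, 2917 and 2698 in control, 2824, 3472 and 3061 in TIG1A and 4467, 4932 and 4481 in TIG1B cells. RBM7 was thus above all other arrays in TIG1B (log2 0.68 ± 0.13 against control) and did not pass the threshold (adjusted p = 0.0520). The 154 bases between the starts of the head-to-head pair, shown because both members read highest in TIG1B, lie at chr11:114400512-114400665 of GRCh38.p14 and are given from RefSeq on the minus strand, the direction of C11orf71, with each CpG in capitals.
C11orf71 and RBM7, shared upstream bases: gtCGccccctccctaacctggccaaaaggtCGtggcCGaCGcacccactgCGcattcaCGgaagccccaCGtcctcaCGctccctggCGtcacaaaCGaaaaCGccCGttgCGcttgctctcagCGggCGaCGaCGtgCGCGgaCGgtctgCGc
The stretch is 67.5% G or C and holds 21 CpG. Searched on both strands, it held neither the TATA box TATAAA nor the GC box GGGCGG, and neither the E-box CACGTG nor the ETS-type core CCGGAA.

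Over the 250 bases before the start, 126 members matched the RefSeq promoter table. Their median G and C content was 62.4% and their median count of CpG 19, beside 64.8% and 21 for the 10774 genes tested that matched. Of the members' windows, 61.9% held the GC box on either strand, 23.0% the ETS-type core, 11.9% the E-box and 4.76% the TATA box, beside 65.6%, 24.0%, 8.85% and 5.91% for the genes tested.

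TIG1B against control asks the same of the short isoform's clone. Here 3 members rose and none fell, beside 0.637% called higher and 1.21% called lower over all genes (limma), and the methods' t-test called none after adjustment. At an unadjusted p under 0.05, 44 members were higher and 5 lower, beside 8.61% and 11.3% of all genes. ARHGAP42, a GTPase-activating protein, read 210.4, 152 and 135 in control, 175, 174 and 200.1 in TIG1A and 417, 413 and 385 in TIG1B cells. The TIG1B arrays lay above all others, and the gene was 2.49-fold higher than in control (log2 1.32 ± 0.18, adjusted p = 0.0234). LOC105369477, a long non-coding RNA, read 46.2, 28.3 and 32.1 in control and 119, 111 and 68.5 in TIG1B cells. Its control and TIG1A arrays were all below the array median, so the difference from control is given as at least 1.35-fold (adjusted p = 0.0458). It passed the filter through TIG1B alone and so is a member only because it was high there, and 2 rises remained among the 136 members that passed in every group. C11orf71 was the third. The count of rises was 6 without control replicate 1 and 0 without control replicate 2, TIG1A replicate 2 or any single TIG1B array. Without TIG1B replicate 1 the 1 member called fell. Over all genes, in either direction, 584 were called without control replicate 1, 33 without control replicate 2 and 63 without TIG1A replicate 2. Leaving out TIG1B replicates 1, 2 and 3 in turn called 32, 24 and 53 genes, beside 246 with all arrays.

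**Figure D3:**
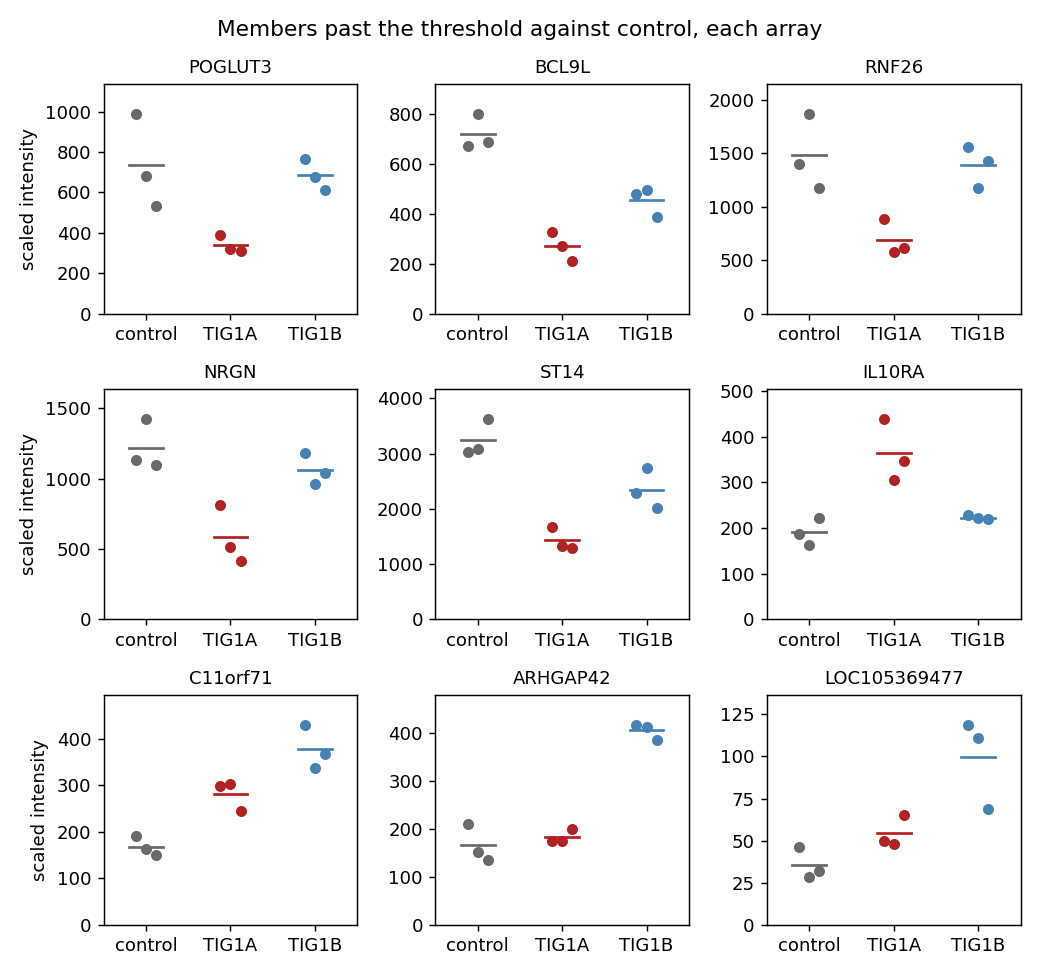
Scaled intensity (y axis, from 0) of the 9 members past the threshold in either comparison with control, by group (x axis); points are arrays and bars are group means, n = 3. BCL9L, ST14, NRGN, RNF26 and POGLUT3 are lowest on the TIG1A arrays, IL10RA is highest there, and C11orf71, ARHGAP42 and LOC105369477 are highest on the TIG1B arrays.

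In TIG1A against TIG1B no member passed the threshold (limma), beside 0.585% of all genes called. At an unadjusted p under 0.05, 70 members were lower in TIG1A and 5 higher, beside 7.32% and 7.69% of all genes. By the methods' t-test on the same values, 2 members passed after Benjamini-Hochberg adjustment, both lower in TIG1A, beside 47 of all genes. With limma the count was 5 without control replicate 3 and 2 without control replicate 1, all lower in TIG1A. Over all genes these fits called 101 and 96. With probe sets kept only where they reached the 75th percentile of an array, 104 members remained, and 30 of them were called, all lower in TIG1A. That filter gave 417 calls over all genes. The members with the smallest p, chosen after their values were seen, are given next.

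ARHGAP42 came closest (log2 -1.15 ± 0.18, adjusted p = 0.0562). NCAPD3, a subunit of the condensin II complex that compacts chromosomes, read 1763, 2173 and 2073 in TIG1A, 3314, 3518 and 2429 in control and 3649, 4249 and 4142 in TIG1B cells (log2 -1.005 ± 0.18 between the TIG1 clones, adjusted p = 0.0794). The control arrays lay between the TIG1 clones without overlap. This order held for 2 further members, so for 3 of the 167 in all. It was not counted over all genes. TRAPPC4, a subunit of the complexes that tether vesicles at the Golgi, read 3186, 3533 and 3052 in TIG1A, 3839, 4601 and 3952 in control and 5491, 5179 and 4997 in TIG1B cells. HYLS1, a protein of the centriole and cilium, read 1076, 1072 and 1032 in TIG1A, 1389, 1614 and 1239 in control and 2391, 1619.6 and 1936 in TIG1B cells.

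Others of this group differed mainly in TIG1B. CWF19L2, a factor linked to splicing, read 651, 626 and 613 in TIG1B cells against 183 to 369 on the other 6 arrays. FXYD6, a regulator of the sodium pump, read 169.8, 113 and 176 in TIG1B cells, the group through which alone it passed the filter, against 35.7 to 81.4 elsewhere. CASP4, an inflammatory caspase that senses cytosolic lipopolysaccharide, read 589.6, 612 and 623 in TIG1B cells, 522, 274 and 236 in control and 287, 261 and 214 in TIG1A cells. In all 3 genes the TIG1A and control arrays overlapped on the brightest probe set. TAGLN, an actin-binding protein of smooth muscle, read 78.0, 106 and 64.3 in TIG1A and 310.2, 457 and 470.1 in TIG1B cells, and its control arrays were split, at 122, 103 and 430.5, with control 3 alone at the TIG1B level. DDX10, an RNA helicase, and DCUN1D5, a co-factor of NEDD8 ligation to cullins, were lower in TIG1A by smaller steps (-0.67 ± 0.14 and -0.59 ± 0.13). The non-coding ESAM-AS1 was below the array median on all TIG1A arrays and at least 1.84-fold higher in TIG1B. For LOC100652768, also non-coding, the log2 difference was -1.59 ± 0.36.

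The 4 members whose arrays separated in the opposite direction were PGR, IL10RA, BACE1 and GRIA4. PGR read 11464, 9476 and 9778 in TIG1A against 6915, 5895 and 7659 in control and 7268, 7889 and 7422 in TIG1B cells (log2 0.59 ± 0.15 against control, adjusted p = 0.0590). A second PGR probe set had means of 34.3, 21.5 and 28.9 in control, TIG1A and TIG1B and did not reach the median. Since the regulatory plasmid carries PGR sequence in every group, the bright probe set cannot tell the plasmid's transcript from the cell's. IL10RA, described above, and BACE1, the β-secretase, were higher in TIG1A than in TIG1B, BACE1 at 193, 240.5 and 194 against 156, 89.0 and 153. GRIA4, a glutamate receptor subunit, passed the filter through TIG1A alone, at 87.1, 45.6 and 74.7, and its control and TIG1B arrays were all below the array median.

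Grouped by role, every list of members with 5 or more measured had a median below 0 in TIG1A against TIG1B, from -0.39 to -0.68, and no member of any list passed the threshold there. The medians are set against -0.47 for all members and 0.003 for all genes. In that comparison 82.6% of all members and 49.7% of all genes were below 0. Arrays were separated downwards in 52.7% of all members and 14.2% of all genes. The counts of each list below are to be read beside these shares. The lists were chosen with earlier results known and carry no test.

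In DNA damage response, replication and chromosome structure, all 11 measured members were below 0 in TIG1A against TIG1B, 7 of them without overlap (median -0.41), and none passed in any comparison. CHEK1 read 1566, 1206 and 1554 in TIG1A, 1901, 2818 and 1853 in control and 2654, 2437 and 2393 in TIG1B cells, so TIG1A lay below both. ATM, the kinase that senses double-strand breaks, read 231, 302 and 328 in TIG1A, 330.1, 275 and 188 in control and 337, 415 and 498 in TIG1B cells, so TIG1B lay above both other groups, which overlapped. The log2 change in TIG1B against control was 0.68 ± 0.26 on this probe set. On further ATM probe sets it was 0.003, 0.03 and -0.18. NPAT, the histone gene co-activator that lies beside ATM, was level between TIG1A and control (0.02 ± 0.16) and read 1174, 1174 and 1088 in TIG1B cells against 671 to 895 elsewhere. NFRKB, a subunit of the INO80 chromatin remodeller, read 369, 347 and 263 in TIG1A and 407 to 604 elsewhere.

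Among kinases and phosphatases, all 5 members were below 0 in TIG1A against TIG1B (median -0.48), and SIK3, a salt-inducible kinase, had log2 values of 0.24 ± 0.14 and 0.48 ± 0.14 in TIG1A and TIG1B against control. In ubiquitin and NEDD8 ligases and proteases, all 10 were below 0 (median -0.39) and RNF26 alone passed, in TIG1A against control. RNF214 read 300.5, 358 and 284 in TIG1A and 384 to 579 elsewhere. TRIM29 read 78.6, 108 and 90.1 in TIG1A and 109 to 248 elsewhere. Both stayed short of the threshold against control (adjusted p = 0.0813 and 0.0971).

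Mitochondrial and cofactor genes had 12 of 13 measured members below 0 in TIG1A against TIG1B (median -0.59), 9 without overlap, and all 13 above 0 in TIG1B against control, with none passing. TIMM8B, a chaperone of mitochondrial protein import, read 6781, 6551 and 6557 in TIG1A, 5576, 6962 and 6464 in control and 11951, 9211 and 10052 in TIG1B cells. A further TIMM8B probe set was at 0.22 in TIG1B against control, where the brightest was at 0.71. DLAT, the acetyltransferase core of pyruvate dehydrogenase, read 3649, 3045 and 3049 in TIG1A and 6403, 5063 and 4773 in TIG1B cells. FDX1, ferredoxin, was the exception, with 9431, 8351 and 8439.5 in TIG1A and 8751, 8663 and 8201 in TIG1B cells against 6865, 6832 and 5140.4 in control, so both TIG1 clones lay above control and overlapped each other. ACAT1, the mitochondrial acetoacetyl-CoA thiolase, also counted among the lipid enzymes, read 4603, 4224 and 3956 in TIG1A and 9554, 8463 and 8435 in TIG1B cells. Its control arrays spanned the gap, at 7476, 6466 and 3236.

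Secretory pathway, endosome and glycosylation genes had 17 of 20 members below 0 in TIG1A against TIG1B (median -0.45), 11 without overlap, and POGLUT3 alone passed against control. SLC35F2, a solute carrier, read 2194, 1675 and 1462 in TIG1A and 2454 to 3865 elsewhere. SIDT2, a lysosomal membrane protein, was above 0 in both clones against control (0.71 ± 0.28 and 0.96 ± 0.28, adjusted p = 0.16 and 0.13). On a further probe set SIDT2 was at -0.12 and 0.28. RNA processing genes had 10 of 11 below 0 (median -0.57), 9 without overlap, among them RPUSD4, a pseudouridine synthase, at 1419, 1299.7 and 1264 in TIG1A and 1803 to 3161 elsewhere.

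The metalloproteinase cluster was mostly below the array median: of 15 proteases listed, 4 were measured, all of them below 0 in TIG1A against control, and ST14 passed. MMP1, interstitial collagenase, read 76.9, 67.8 and 66.0 in TIG1A, 440.4, 295 and 109 in control and 476, 420.0 and 186 in TIG1B cells. The TIG1A arrays lay below all others, with a log2 change of -1.78 ± 0.54 against control (adjusted p = 0.091). MMP7, matrilysin, passed the filter through TIG1B alone, where it read 97.8, 97.5 and 96.9. Its TIG1A arrays, at 34.9, 13.0 and 34.3, were all below the array median.

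In the caspase and cytokine list 6 of 10 were measured, 5 of them below 0 in TIG1A against TIG1B (median -0.51), and IL10RA was the only one past the threshold, upwards in TIG1A against control. IL18, the cytokine matured by inflammatory caspases, read 434, 639 and 579 in TIG1A, 1664, 1081 and 593 in control and 1390.0, 1297 and 1411 in TIG1B cells, so control 3 overlapped TIG1A and the other controls did not. Transcription and chromatin genes had 8 of 11 below 0 (median -0.51), and BCL9L alone passed. ZPR1, a zinc finger protein that binds growth factor receptors, read 1553, 1725 and 1576 in TIG1A and 2161 to 2859 elsewhere (-0.60 ± 0.15 against control, adjusted p = 0.0577).

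Cytoskeletal and ciliary genes and GTPase regulators had 10 of 12 below 0 (median -0.47) and ARHGAP42 passed, upwards in TIG1B. DIXDC1, a Wnt pathway protein with a DIX domain, spread widely in TIG1A, at 8.89, 83.7 and 47.5, with a log2 change of -1.81 ± 0.77 against control. Adhesion and cell surface genes had 9 of 13 below 0 (median -0.40) and none passed. CDON, a co-receptor of Hedgehog ligands, read 1113, 1039 and 952 in TIG1A and 1073, 1018 and 1006 in TIG1B cells against 942, 714 and 593 in control, with no difference between the TIG1 clones (0.00 ± 0.18). MPZL2, an epithelial adhesion protein, had log2 values of 0.10 ± 0.23 and 0.66 ± 0.23 against control, and CADM1, another adhesion molecule, read between 8.43 and 88.7, with 6 of 9 arrays below the array median, and passed the filter through control alone.

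Lipid enzymes had 4 of 5 below 0 (median -0.68). PAFAH1B2, a subunit of a platelet-activating factor acetylhydrolase, read 2779, 2853 and 3308 in TIG1A and 3651 to 5367 elsewhere (-0.72 ± 0.18 against control, adjusted p = 0.0621). SIAE, a sialic acid esterase, was split in control, at 1773, 1105 and 503. Of 12 ion channel genes 4 were measured, 2 on each side of 0, and HTR3A, a serotonin-gated channel, read 54.5, 6.06 and 83.7 in TIG1A and 46.3, 51.9 and 82.6 in control cells, where the arrays overlapped. Its log2 difference of -0.95 ± 0.87 rested on TIG1A replicate 2 and was 0.21 without it, and the gene passed the filter through TIG1B alone.

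**Figure D4:**
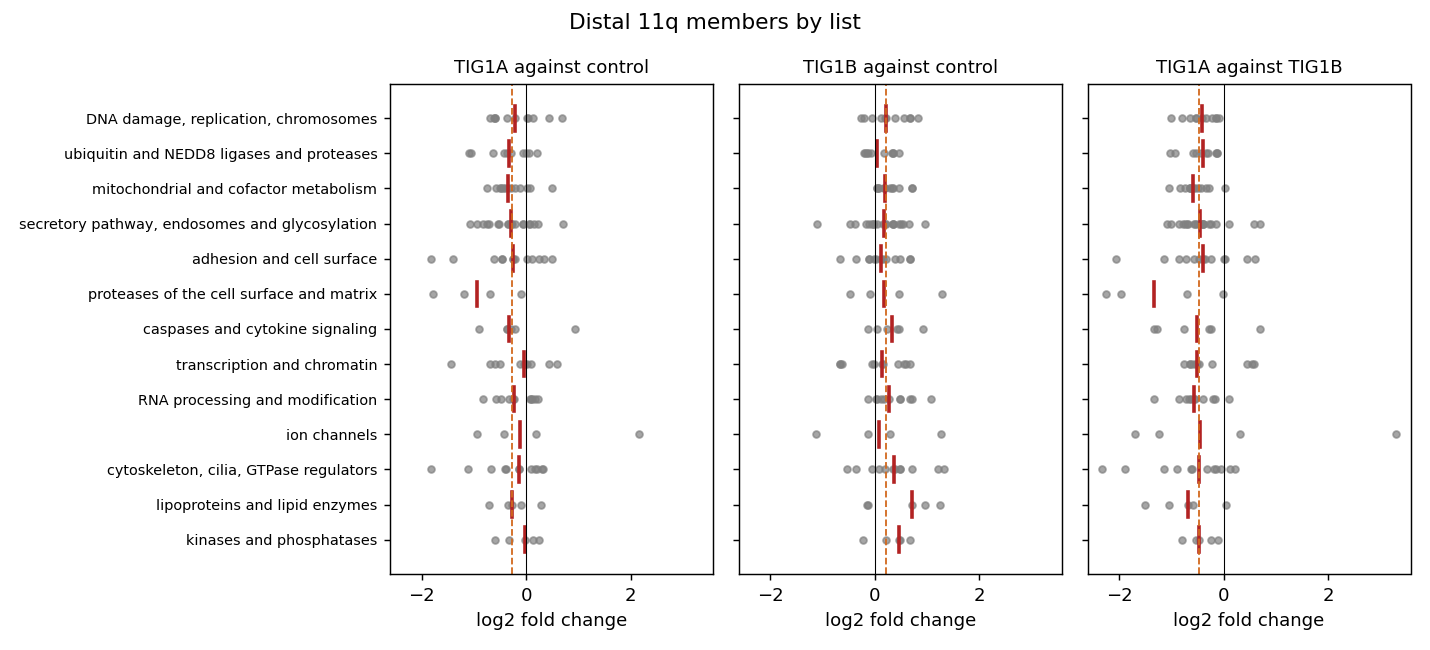
Log2 fold change (x axis) of each measured distal 11q member, by list (y axis), in the 3 comparisons; grey points are members, red bars list medians and the dashed line the median of all 167 members. In TIG1A against TIG1B every list median lies below 0, between -0.39 and -0.68, except the 4 surface proteases at -1.34.

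Several members are subunits of complexes whose partners are encoded outside the region. The 8 coatomer partners of ARCN1 were all above 0 in TIG1A against control, with a median of 0.45, while ARCN1 itself was at 0.07 ± 0.16. COPB2 alone of them passed (0.82 ± 0.13, adjusted p = 0.0187). Of the 4 condensin II partners of NCAPD3 all were below 0 in TIG1A against TIG1B (median -0.35), beside -1.005 for NCAPD3. The 6 partners of STT3A had a median of 0.03 in that comparison, beside -0.39 ± 0.22 for STT3A, and the 4 of DLAT a median of -0.04, beside -0.73 ± 0.19. For the succinate dehydrogenase partners of SDHD the median was 0.11, and for SDHD -0.34 ± 0.16. Of these partners 3 were above 0 and 1, SDHAF2, was below. SDHAF2 starts at 61430124 of chromosome 11, within the shifted stretch, and was at -0.43 ± 0.15 with its arrays separated downwards. The 14 partners of ATM and CHEK1 measured had a median of -0.27. Partners of CUL5 (4 genes), VPS26B (3 genes) and VPS11 (7 genes) had medians of -0.02, -0.02 and 0.22, beside -0.34, -0.50 and -0.74 for the members. Past the threshold against control were VPS26A in the retromer list (0.57 ± 0.13 in TIG1A, adjusted p = 0.0495) and VPS41 in the list of lysosomal tethers (0.62 ± 0.13 in TIG1A, adjusted p = 0.0337).

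Further probe sets of the members, which did not choose them, gave the same picture between the TIG1 clones. For 75 members 128 further probe sets were kept, 108 of them below 0 in TIG1A against TIG1B and 113 of the same sign as the member's brightest probe set, with a median of -0.42. Fewer shared the sign of the brightest probe set against control, 83 in TIG1A and 90 in TIG1B. Their medians were -0.20 and 0.31. Against control, 2 further probe sets rose and 2 fell in TIG1A, and 3 rose in TIG1B. PAFAH1B2 fell in TIG1A on its second probe set (-1.03, adjusted p = 0.0144). THYN1, a nuclear protein linked to lymphocyte apoptosis, rose on its second probe set in both clones (1.14 and 1.20, adjusted p = 0.0198 and 0.0316), and its brightest probe set was at 1.06 ± 0.29 and 1.19 ± 0.29 (adjusted p = 0.0730 and 0.0883). Probe sets of SIK3 disagreed: the second fell in TIG1A (-1.11, adjusted p = 0.0326) where the brightest was at 0.24 ± 0.14. CWF19L2 rose in TIG1B on a further probe set (1.08, adjusted p = 0.0304), close to its brightest at 1.07 (adjusted p = 0.0906). In TIG1A against control the same 2 probe sets differed in sign, at 0.54 and -0.26. Between the TIG1 clones they were at -0.53 and -1.33. UBASH3B, a phosphatase that acts on receptor signalling, rose in TIG1B on a further probe set (1.33, adjusted p = 0.0448), where its brightest was at 0.40. A further probe set of ARHGEF12, a guanine nucleotide exchange factor, read 22.9, 64.3 and 36.8 in control, all below the array median, and 125.5, 96.6 and 119 in TIG1A cells (adjusted p = 0.0472), where its brightest was at 0.21.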

How the data were processed

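Total RNA was hybridised to HG-U133 Plus 2.0 arrays, and the authors made the deposited intensity values, linear signals per probe set, with GeneChip Operating System 1.1.1 by global scaling to a target of 500. Array medians were 59.9 to 73.9. For the present text a floor of 1 was set, log2 taken, and 29977 of 54675 probe sets kept at or above the array median on 2 of 3 arrays of a group. Probe sets with 1 gene symbol were matched to GRCh38.p14 RefSeq genes through Entrez identifiers, and each gene was read off its brightest probe set. Groups were compared with limma 3.58.1 in R 4.3.3 (lmFit, eBayes), with Benjamini-Hochberg adjustment over all kept probe sets, after tests on simulated data. The 3 arrays per group limit precision. A fold is called "at least" where all arrays of the dimmer group were below their medians, which then stood in for its signal.

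The members and lists were chosen with earlier results of these data known. Named members were the called ones, up to 3 per list with the smallest p against control, up to 2 per partner list, the 3 nearest the position limit on each side, and 12 with the smallest p between the TIG1 clones; single members that departed from their group were added after their values were seen. The RefSeq promoter table gave no entry for BCL9L or ST14, and that of IL10RA lies inside the annotated gene and is not printed. Alternatives tried were quantile normalization, median centring, an offset of 50, no filter or the 75th percentile, 6 arrays only, a replicate block, trend and robust options, means over probe sets, a later position limit, leaving out arrays, and the methods' t-test. Replicate numbers were not taken to pair the arrays, though TIG1A 1 and TIG1B 1 correlated at 0.19 in their deviations from group means.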

Additional observations from a re-analysis of the deposited data

Results flagged for a closer look

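TLCD5, a membrane protein gene of the region, differed between the TIG1 clones on a further probe set that did not choose it as a member. The probe set read 241, 191 and 253 in TIG1A, 344, 368 and 339 in control and 510.1, 454 and 524 in TIG1B cells. The 3 groups did not overlap, and the log2 difference between TIG1A and TIG1B was -1.13 (limma, adjusted p = 0.0343). The brightest probe set of TLCD5 was at -0.93 ± 0.25 (adjusted p = 0.19).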

How the results depend on the processing

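The median member kept its direction in all 3 comparisons under every alternative run. In TIG1A against TIG1B it lay between -0.50 and -0.44 when each of the 9 arrays was left out, in TIG1A against control between -0.37 and -0.19, and in TIG1B against control between 0.14 and 0.29. With each array centred on its own median, which moved the median of all genes to 0.14 and 0.13 against control, the members stood at -0.11 and 0.37. In TIG1B against control the median was 0.12 without a filter and 0.34 with the 75th percentile filter.

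The counts of calls depended on the processing. For TIG1A against control (7 called) the count was 13 with an offset of 50, 26 with the 75th percentile filter, 24 with the trend and robust options, 13 with means over probe sets, 3 with the replicate block, and 0 without a filter, with 6 arrays only and by the methods' t-test after adjustment (35 unadjusted). Calls over all genes, in that order, were 1388, 2104, 1949, 1066, 316, 21, 67 and 70 (3185 unadjusted), beside 936 in the main fit. For TIG1B against control (3 called) the member counts were 8, 18, 11, 7, 0, 0, 0 and 0 (32 unadjusted), and 1 for the later position limit. Over all genes they were 436, 984, 826, 347, 0, 2, 5 and 3 (2278 unadjusted), beside 246 in the main fit. For TIG1A against TIG1B (0 called) the member counts were 3, 30, 26, 4, 0, 0, 0 and 2 (81 unadjusted), with 1 under quantile normalization. Over all genes they were 130, 417, 376, 118, 0, 0, 1 and 47 (2635 unadjusted), with 74 under quantile normalization and 78 in the main fit. Leaving out single arrays gave 1 to 10, 0 to 6 and 0 to 5 member calls, beside 143 to 1590, 24 to 584 and 0 to 101 over all genes. In an alternative chosen after seeing the data, TIG1A 1 and TIG1B 1, whose GAPDH ratios stood apart, were left out together. This gave 4, 0 and 0 member calls, beside 330, 7 and 0 over all genes, with member medians of -0.27, 0.26 and -0.46. Restricting to the 136 members that passed in every group, also chosen after seeing the data, gave 7, 2 and 0 calls. The no-filter and 6-array settings test more probe sets or fewer arrays; the cause of the other differences was not tested.

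Of 73 results on single genes, 13 past the threshold, the alternatives kept direction and side in 1116 cases, lost the call in 128 and gained one in 120. BCL9L kept its call under 17 of 19 alternatives and ST14 under 15 of 19; the other called members kept theirs under 5 to 10. The result for HTR3A, TIG1A against control, ranged from -1.68 to 0.21 as arrays were left out and changed sign without TIG1A replicate 2. Same-numbered arrays correlated by more than 0.1 in 1 of 9 pairs (0.19, TIG1A 1 with TIG1B 1). Each array of that pair correlated at -0.10 to -0.13 with replicates 2 and 3 of the other TIG1 clone. Apart from that pair, the replicate block rests on numbers alone.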
